A study of Mus musculus with 10 samples.

Results

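The transforming growth factor beta (TGF-beta) pathway was followed in microglia through 10 genes chosen by symbol: the ligand gene Tgfb1, the receptor genes Tgfbr1 and Tgfbr2, the signal transducers Smad2, Smad3 and Smad4, the inhibitors Smad7 and Ski, the anchor gene Nrros and the target gene Tgfbi. All 10 symbols were found among the 46152 genes counted, and all 10 were among the 28419 genes with enough counts to be tested. The microglia came from male and female C57BL/6J mice aged 8 to 12 weeks, gavaged for 8 days either with vehicle (0.1% Tween 80 and 0.5% hydroxymethyl propyl-cellulose, the Vehicle group, 5 mice) or with GW2580 in that vehicle at 80 mg/kg/d (the GW2580 group, 5 mice). GW2580 is an oral inhibitor of the kinase of CSF1R, the receptor by which microglia sense the growth factors CSF1 and IL-34, and the comparison asks how its dosing changed the microglial transcriptome in otherwise untreated mice. Each group held 2 males and 3 females, and each mouse gave 1 library of RNA from brain cells enriched on a Percoll gradient and then selected with magnetic beads for CD11b, a surface protein that monocytes, granulocytes and border macrophages also carry.

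TGF-beta is secreted in a latent complex and has to be released before it can bind its receptors. The active ligand joins a type II receptor (Tgfbr2) to a type I receptor kinase (Tgfbr1), which phosphorylates Smad2 and Smad3, and these enter the nucleus with Smad4 and change transcription. Microglia depend on this signal to keep their adult, homeostatic gene expression.

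Fragments counted on genes ranged from 12550418 to 26079343 per library, and each of the 10 genes had at least 301 counts in every library. The libraries were checked against markers. The 9 microglia markers were all tested and summed to between 12089.5 and 27565 CPM (counts scaled to the library size) with Vehicle and between 17038 and 56236 CPM with GW2580, above the summed markers of astrocytes (158 to 1188 CPM over all 10 libraries), neurons (56.5 to 474 CPM) and border macrophages (182 to 732 CPM) in every library. The 13 monocyte and granulocyte markers summed to between 858 and 29365 CPM and the 8 oligodendrocyte markers to between 155 and 15381 CPM. The 9 endothelial and mural markers summed to between 81.3 and 201 CPM, although 1 of them, Cldn5, had 0 counts in all libraries. 2 libraries stood apart from their groups. On the first principal component of the genes above 20 CPM, Vehicle 1 to 4 lay between 35.0 and 40.5 and Vehicle 5 at -77.9, whereas GW2580 1, 3 and 4 lay between -46.4 and -37.8, GW2580 2 at 5.20 and GW2580 5 at 45.8. Vehicle 5 thus lay on the side of most GW2580 libraries and GW2580 5 on the side of most Vehicle libraries, and results that rest on them are given with and without them. The labels were kept as deposited. Whether those 2 libraries were exchanged was not tested, and each group mean and fold change rests on the labels as they stand. As these are bulk samples, fewer cells of a type and less RNA per cell cannot be told apart.

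Values are CPM scaled with TMM factors (the trimmed mean of M-values), and fold changes are GW2580 against Vehicle on the log2 scale with their standard error (SE). Genes count as called where the fold change was over 2 and the unadjusted p under 0.05, the thresholds of the study. By this rule 1 of the 10 genes was called, Tgfbr2, which was higher with GW2580. Among all genes tested, 10.7% were called, 4.01% higher and 6.7% lower, so that 1 of 10 was close to the background. Of the 10 genes, 9 had a positive log2 fold change and Smad7 a negative one, and their median was 0.46, against -0.03 over all genes tested. The median of the 10 was 0.73 without Vehicle 5 (0.05 over all genes), and 0.12 without GW2580 3 (-0.06 over all genes), where 7 of the 10 were positive. With p adjusted by Benjamini-Hochberg over the 28419 genes, 0 of the 10 and 0 of all genes were under 0.05 in edgeR's quasi-likelihood test. At an unadjusted p under 0.05 and any fold, 2 of the 10 passed, Tgfbr1 and Tgfbr2, against 14.7% of all genes. DESeq2, edgeR's likelihood ratio test and limma-voom also left 0 of the 10 under an adjusted p of 0.05. In none of the 10 genes did all GW2580 libraries lie apart from all Vehicle libraries.

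**Figure D1:**
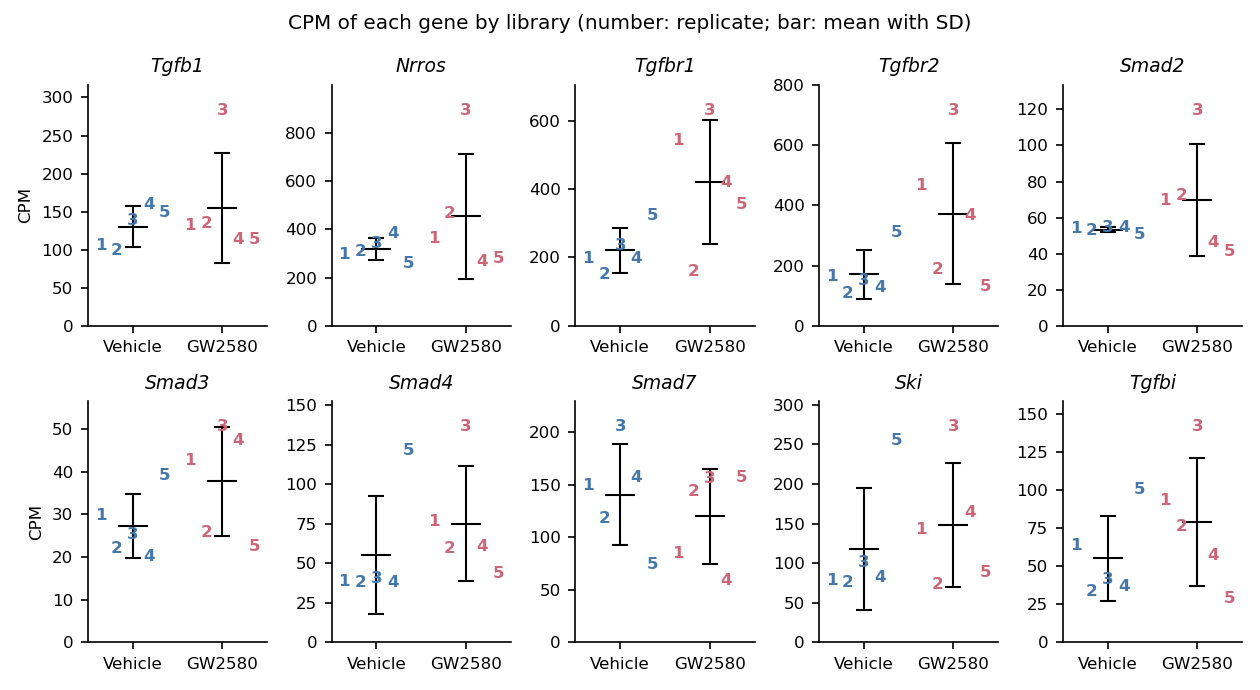
CPM (vertical axes, from 0, a scale for each gene) of the 10 genes in the 5 Vehicle and 5 GW2580 libraries; each number is the replicate number of a library, the horizontal bar is the group mean and the whiskers are 1 SD. GW2580 3 was the highest of all 10 libraries in 9 genes (all but Smad7), and Vehicle 5 was the highest Vehicle library in 6. GW2580 3 was also the highest library for 8 of the 9 microglia markers and 5 of the 8 border macrophage markers. These ranks hold for the scaled CPM. GW2580 3 had the lowest TMM factor (0.691), which raises its CPM, and GW2580 4 (1.61) and GW2580 1 (1.23) had the highest. Before TMM scaling, Tgfbr2 had 12885 of 26079343 counted fragments in GW2580 3 and 7723 of 13228819 in GW2580 4, a larger share in GW2580 4.

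The receptors showed the largest differences. Tgfbr2 (NCBI gene 21813, chromosome 9 from 116087695 to 116175363 of GRCm38), the type II receptor that binds the ligand, was at 163, 106, 149.5, 126 and 309 CPM in Vehicle 1 to 5. It was at 467, 188, 716, 366 and 129 CPM in GW2580 1 to 5. GW2580 1, 3 and 4 lay above every Vehicle library, GW2580 2 lay above all but Vehicle 5, and GW2580 5 lay within the Vehicle range, so the groups overlapped. Vehicle mice averaged 171 ± 80.2 CPM and GW2580 mice 373 ± 235 CPM (SD, n = 5 each), a log2 fold change of 1.13 (SE 0.48, edgeR's quasi-likelihood test, unadjusted p = 0.034, Benjamini-Hochberg adjusted p = 0.308). A two-sided exact permutation test of log2 CPM gave p = 0.087. Without Vehicle 5 the log2 fold change was 1.45, without GW2580 5 it was 1.28 and without both it was 1.57, with an adjusted p of 0.020 by the same edgeR test. Without both, 3 of the 10 genes were called (Tgfbr1, Tgfbr2 and Smad4), against 22.3% of all genes. That pair was left out because of where it lay between the groups, and without it 17.8% of all genes passed an adjusted p of 0.05, so this value is no independent support. The call was lost without any of Vehicle 1 to 4, GW2580 1 or GW2580 3, and the lowest of these values was 0.75, without GW2580 3.

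Tgfbr1 (NCBI gene 21812, chromosome 4 from 47353222 to 47414926), the type I receptor whose kinase phosphorylates Smad2 and Smad3, was at 197, 151, 236, 196 and 322 CPM in Vehicle 1 to 5. It was at 541, 160.3, 629.8, 418 and 355 CPM in GW2580 1 to 5. All GW2580 libraries but GW2580 2, 4 of 5, exceeded the Vehicle range, a pattern that 7.61% of all genes tested shared or exceeded. Vehicle mice averaged 220.4 ± 64.4 CPM and GW2580 mice 421 ± 181 CPM (SD, n = 5 each). This was a log2 fold change of 0.93 (SE 0.40, edgeR's quasi-likelihood test, unadjusted p = 0.034, adjusted p = 0.308), short of the fold of 2, with p = 0.071 by a two-sided exact permutation test. Without Vehicle 5 the log2 fold change was 1.11 and the gene was called, and over all libraries left out in turn it stayed between 0.74 and 1.14. In GW2580 5 the receptors parted, with Tgfbr1 at 355 CPM, above every Vehicle library, and Tgfbr2 at 129 CPM, below 3 of them. The ratio of Tgfbr2 to Tgfbr1, both per kilobase of exon, was 0.469 there, against 1.11 to 1.51 in the other GW2580 libraries and 0.816 to 1.23 with Vehicle. The mean log2 ratio did not differ beyond the spread between libraries (difference 0.14, two-sided exact permutation p = 0.770, adjusted over 4 ratios p = 0.770).

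**Figure D2:**
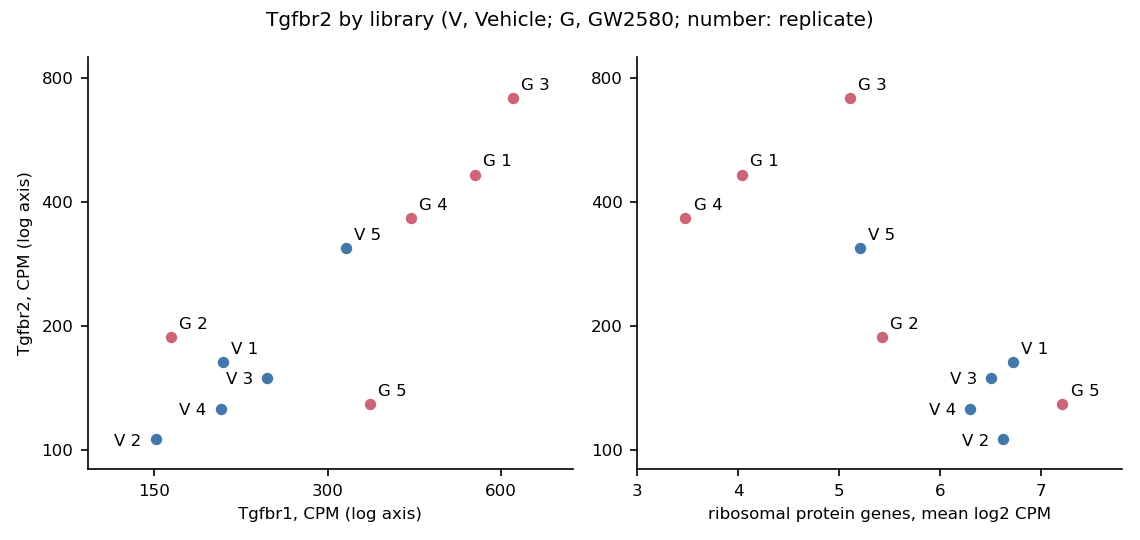
Left, Tgfbr2 against Tgfbr1 in each library, both in CPM on log axes. Right, Tgfbr2 (CPM, log axis) against the mean log2 CPM of the 67 ribosomal protein genes. Blue points (V) are Vehicle and red points (G) are GW2580 libraries; Vehicle 5 sits next to GW2580 4 on the left, and the 4 libraries with the most Tgfbr2 have a ribosomal mean at or below 5.20.

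The level of the ribosomal protein genes differed between libraries, in the opposite sense to Tgfbr2 in the libraries that stood apart. Their mean log2 CPM was 6.72, 6.63, 6.50, 6.30 and 5.20 in Vehicle 1 to 5 and 4.04, 5.42, 5.11, 3.48 and 7.21 in GW2580 1 to 5, so that the library with the highest Tgfbr2 of the Vehicle group had its lowest ribosomal mean and the library with the lowest Tgfbr2 of the GW2580 group had its highest. Tgfbr1 did not follow this order, since GW2580 5, with the highest ribosomal mean, had more Tgfbr1 than every Vehicle library, and the lowest Tgfbr1 of the GW2580 group was in GW2580 2, at a ribosomal mean of 5.42. With this mean as a covariate in the edgeR model, the log2 fold change was 0.46 for Tgfbr2 and 0.69 for Tgfbr1, and neither was called. The part of this measure in the result was not tested beyond that fit.

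The promoters of both receptors are shown because these genes had the largest differences, and that of Smad3 because its level followed Tgfbr2 most closely among the 10 genes. Each window runs from 250 bases before to 50 bases after the transcription start, 5′ to 3′ on the gene's strand, from RefSeq on GRCm38.p6. The capitals mark CAGAC, the core of the Smad binding element, searched on both strands. The windows are chr9:116175314-116175613 for Tgfbr2 (minus strand), chr4:47352972-47353271 for Tgfbr1 (plus strand) and chr9:63757945-63758244 for Smad3 (minus strand).
Tgfbr2: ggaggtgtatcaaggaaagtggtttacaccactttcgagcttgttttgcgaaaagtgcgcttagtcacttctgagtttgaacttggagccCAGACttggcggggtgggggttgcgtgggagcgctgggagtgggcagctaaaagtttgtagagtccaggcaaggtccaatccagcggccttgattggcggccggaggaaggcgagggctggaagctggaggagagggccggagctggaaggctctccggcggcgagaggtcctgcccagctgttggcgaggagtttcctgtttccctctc
Tgfbr1: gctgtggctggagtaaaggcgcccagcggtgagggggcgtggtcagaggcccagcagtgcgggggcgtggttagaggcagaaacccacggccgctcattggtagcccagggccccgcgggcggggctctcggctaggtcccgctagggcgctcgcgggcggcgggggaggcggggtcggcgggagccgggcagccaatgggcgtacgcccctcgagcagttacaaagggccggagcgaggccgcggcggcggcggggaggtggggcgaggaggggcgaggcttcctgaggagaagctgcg
Smad3: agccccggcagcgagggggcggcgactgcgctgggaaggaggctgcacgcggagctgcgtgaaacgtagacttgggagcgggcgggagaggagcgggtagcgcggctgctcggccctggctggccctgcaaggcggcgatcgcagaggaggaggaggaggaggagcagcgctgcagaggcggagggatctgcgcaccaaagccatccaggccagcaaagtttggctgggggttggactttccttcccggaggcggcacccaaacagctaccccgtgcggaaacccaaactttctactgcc
CAGAC occurred once in the Tgfbr2 window, with its first base at -160 from the start, and not in the Tgfbr1 and Smad3 windows. RefSeq windows were found for 7 of the 10 genes, with a second start for Tgfbr1, and 4 of these 8 windows held CAGAC on either strand, against 49.6% of 32851 promoters of the same length. They were those of Tgfbr2, Nrros (at -177), Tgfbi (at -239 and -85) and the second start of Tgfbr1 (chr4:47385966-47386265, at -203). GAGGAA, the core bound by the macrophage factor PU.1, which does not overlap CAGAC, was in 2 of the 8 windows, at -57 for Tgfbr2 and at -95 for the second start of Tgfbr1, against 28.3% of all promoters. Bases G and C made up 59.0% of the Tgfbr2 window, 74.7% of the Tgfbr1 window and 67.7% of the Smad3 window, against a median of 52.7% over all promoters. A match describes the letters of a window and does not show that a factor binds there.

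The ligand and its anchor differed less. Tgfb1 (NCBI gene 21803, chromosome 7 from 25687002 to 25705077), the TGF-beta ligand that microglia make themselves, was at 105, 99.7, 138, 159.5 and 149 CPM in Vehicle 1 to 5. It was at 131, 135, 283, 114 and 113 CPM in GW2580 1 to 5. GW2580 3 alone lay above the Vehicle range and the other 4 libraries lay inside it. Tgfb1 had a log2 fold change of 0.25 (SE 0.34, edgeR's quasi-likelihood test, adjusted p = 0.748), and of -0.079 without GW2580 3. Nrros (NCBI gene 224109, chromosome 16 from 32142785 to 32165594), a transmembrane protein that holds latent TGF-beta1 on the surface of microglia and is needed for its activation, was at 296, 308, 340.4, 381 and 259 CPM in Vehicle 1 to 5. It was at 363, 465, 892, 267 and 280.2 CPM in GW2580 1 to 5. Only GW2580 2 and 3 exceeded the Vehicle range. Nrros had a log2 fold change of 0.52 (SE 0.39, edgeR's quasi-likelihood test, adjusted p = 0.536) and 0.12 without GW2580 3.

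Of the signal transducers, Smad2 was the most even gene among Vehicle mice and spread in both directions with GW2580. Smad2 (NCBI gene 17126, chromosome 18 from 76241090 to 76311748), which the activated receptor phosphorylates, was at 54.0, 52.8, 54.6, 54.8 and 50.9 CPM in Vehicle 1 to 5, an SD of 1.61 around 53.4 CPM. It was at 69.3, 72.0, 119, 46.3 and 41.3 CPM in GW2580 1 to 5, an SD of 31.0 around 69.7 CPM. GW2580 1, 2 and 3 were above every Vehicle library and GW2580 4 and 5 below every Vehicle library, and the log2 fold change was 0.38 (SE 0.32, edgeR's quasi-likelihood test, adjusted p = 0.584). Smad3 (NCBI gene 17127, chromosome 9 from 63646766 to 63757994), the other transducer of the receptor and the one that binds DNA itself, was at 29.7, 21.9, 25.1, 20.2 and 39.0 CPM in Vehicle 1 to 5. It was at 42.6, 25.7, 50.5, 47.3 and 22.5 CPM in GW2580 1 to 5. Like Tgfbr2, Smad3 was above every Vehicle library in GW2580 1, 3 and 4 and within the Vehicle range in GW2580 2 and 5. Its log2 fold change was 0.47 (SE 0.32, edgeR's quasi-likelihood test, adjusted p = 0.497). The log2 ratio of Smad3 to Smad2 differed by 0.16 between the groups (two-sided exact permutation p = 0.635, adjusted over 4 ratios p = 0.770).

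Smad4 (NCBI gene 17128, chromosome 18 from 73634790 to 73703791), the common partner that carries Smad2 and Smad3 onto DNA, was at 38.3, 37.9, 40.2 and 37.7 CPM in Vehicle 1 to 4 but at 122 CPM in Vehicle 5. It was at 76.2, 59.4, 136, 60.8 and 43.4 CPM in GW2580 1 to 5, so that all 5 GW2580 libraries lay above Vehicle 1 to 4 and Vehicle 5 lay above all but GW2580 3. With all libraries the log2 fold change was 0.45 (SE 0.43, edgeR's quasi-likelihood test, adjusted p = 0.634). Without Vehicle 5 it was 0.97 (SE 0.34, unadjusted p = 0.013, adjusted p = 0.167 by the same edgeR test), just under the fold of 2. Without Vehicle 5 and GW2580 5 together it was 1.01 and the adjusted p was 0.033 by the same edgeR test, with the limit given above for that pair. Leaving out Vehicle 5 moved Smad4 more than any other of the 10 genes.

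**Figure D3:**
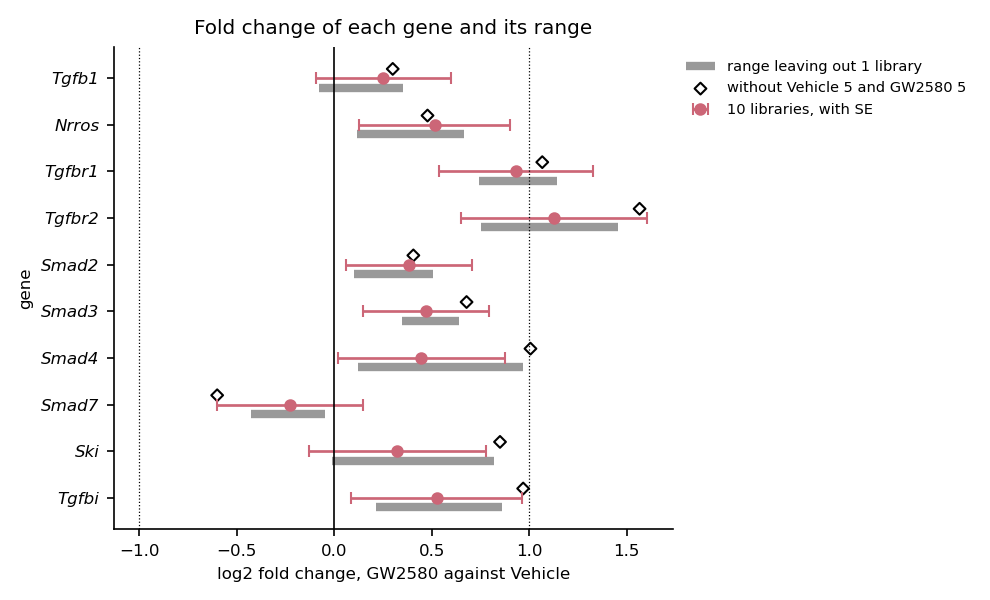
Log2 fold change of GW2580 against Vehicle for the 10 genes. Red points with whiskers are the values over 10 libraries with their SE, grey bars span the values with 1 library left out at a time, open diamonds are the values without Vehicle 5 and GW2580 5, and dotted lines mark a fold of 2. Tgfbr2 alone lies beyond a fold of 2 with all libraries, at 1.13, and Smad7 alone lies below 0, at -0.23.

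Of the inhibitors, Smad7 (NCBI gene 17131, chromosome 18 from 75367365 to 75395935), which TGF-beta induces and which blocks the type I receptor, was the only gene of the 10 with a lower mean under GW2580. It was at 149, 118, 205, 157 and 74.4 CPM in Vehicle 1 to 5. It was at 84.7, 143, 156, 59.0 and 157 CPM in GW2580 1 to 5. The lowest Vehicle library was Vehicle 5, the lowest GW2580 libraries were GW2580 1 and 4, and only GW2580 4 lay outside the Vehicle range. Its log2 fold change was -0.23 (SE 0.38, edgeR's quasi-likelihood test, adjusted p = 0.794), -0.60 without Vehicle 5 and GW2580 5, and 0.27 with the ribosomal mean as a covariate. As a ratio to Tgfbr1, the receptor it inhibits, both per kilobase of exon, Smad7 was at 1.05 to 1.20 in Vehicle 1 to 4 and 0.320 in Vehicle 5, and between 0.196 and 1.24 with GW2580. The mean log2 ratio with GW2580 minus that with Vehicle was -1.09, a difference within the spread between libraries (two-sided exact permutation p = 0.127, adjusted over 4 ratios p = 0.508). Ski (NCBI gene 20481, chromosome 4 from 155154075 to 155222535), a nuclear repressor that holds Smad complexes inactive, was at 77.6, 75.9, 100.4 and 82.3 CPM in Vehicle 1 to 4 and at 255 CPM in Vehicle 5. It was at 142, 73.7, 272, 164 and 88.5 CPM in GW2580 1 to 5. Ski had a log2 fold change of 0.32 (SE 0.45, edgeR's quasi-likelihood test, adjusted p = 0.755), 0.82 without Vehicle 5 and -0.013 without GW2580 3.

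Tgfbi (NCBI gene 21810, chromosome 13 from 56609586 to 56639359), a secreted matrix protein named for its induction by TGF-beta, was at 63.4, 33.1, 41.2, 36.9 and 100.5 CPM in Vehicle 1 to 5. It was at 92.8, 75.8, 141, 57.2 and 29.0 CPM in GW2580 1 to 5. GW2580 3 was above every Vehicle library, GW2580 5 was below every Vehicle library, and Vehicle 5 was the highest of its group. Tgfbi had a log2 fold change of 0.53 (SE 0.44, edgeR's quasi-likelihood test, adjusted p = 0.579), and 0.97 without Vehicle 5 and GW2580 5 (adjusted p = 0.054 by the same edgeR test).

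Levels of the genes can be compared only per length. As CPM per kilobase of exon, the order in Vehicle was Tgfb1 (59.9 ± 12.3), Nrros (48.5 ± 7.07), Tgfbr1 (35.8 ± 10.5), Tgfbr2 (35.7 ± 16.7), Smad7 (31.7 ± 10.9), Ski (21.6 ± 14.1), Tgfbi (20.1 ± 10.2), Smad4 (7.23 ± 4.88), Smad2 (5.39 ± 0.16) and Smad3 (4.88 ± 1.35, SD, n = 5 each). The ligand, its anchor, both receptors and the inhibitor Smad7 thus stood above the 3 transducers. The ranges of each pair of neighbours in this order overlapped. Within a library, Tgfbi was above Smad4 in all 5 Vehicle mice, whereas Tgfbr1 was above Tgfbr2 in 3 of 5 and Smad4 above Smad2 in 1 of 5, Vehicle 5. With GW2580 the means per kilobase were 77.9 ± 49.0 for Tgfbr2, 71.4 ± 33.2 for Tgfb1, 69.4 ± 39.4 for Nrros and 68.4 ± 29.3 for Tgfbr1 (SD, n = 5 each), so that these 4 genes lay within each other's spread.

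**Figure D4:**
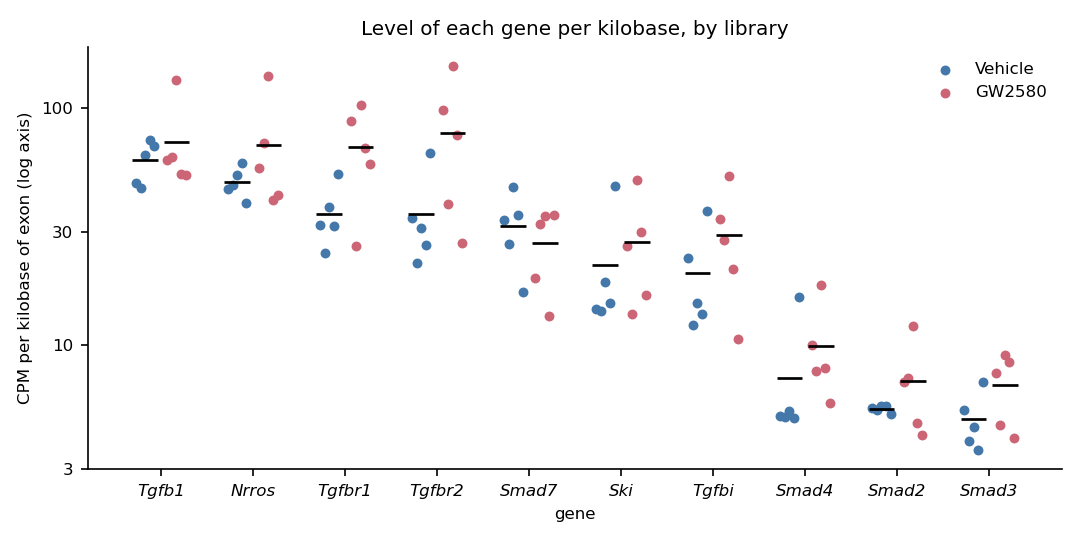
CPM per kilobase of exon (log axis) of the 10 genes, ordered by their Vehicle mean; points are libraries (blue Vehicle, red GW2580) and bars are group means. Smad2, Smad3 and Smad4 stand at means of 4.88 to 7.23 with Vehicle and the other 7 genes at 20.1 to 59.9.

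Across the 10 libraries the genes fell into patterns, given here as a description because the points share the same libraries and scaling. Of the 45 pairs, 39 had a positive Pearson correlation of log2 CPM and the 6 negative pairs all involved Smad7, most strongly with Smad3 (r = -0.60). The closest pairs were Tgfbr2 with Smad3 (r = 0.95), Smad2 with Nrros (r = 0.95) and Smad4 with Ski (r = 0.91). Of all genes tested, those with the pattern most like Tgfbr2 were Tlr13, Sgpl1 and Nckap1l (r = 0.995, 0.995 and 0.994 over 10 libraries), and the 3 nearest to Tgfbr1 included 4930594C11Rik and Inpp5d (r = 0.97 and 0.95). For Smad7 they were Fyb, Kpna4 and Dimt1 (r = 0.99, 0.97 and 0.96), and the 3 nearest to Nrros included Slc29a1 and Rcbtb2 (r = 0.99 and 0.98). For Tgfb1 they were Pcyox1l, Fam219b and Tent5a (r = 0.97, 0.97 and 0.96), and for Tgfbi Marchf7, Mapkapk2 and Ptger4 (each r = 0.98). Smad2 followed Ctps2, Slc46a3 and M6pr (r = 0.99, 0.99 and 0.98), Smad3 followed Sh3tc1, Nod1 and Dcp1a (each r = 0.97), Smad4 followed Fem1b, Rprd1b and Tcf3 (each r = 0.99), and Ski followed Pkd1, Rptor and Arap3 (r = 0.99, 0.98 and 0.98).

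The effect was compared between the sexes by the interaction of sex and treatment in the same model. The log2 fold change of Tgfbr2 was 1.05 in females and 1.28 in males, and that of Tgfbr1 0.90 and 1.01. Vehicle 5 and GW2580 5, the libraries that stood apart from their groups, were both from females and so bear on the female values. The interaction was not fitted without them. In edgeR's quasi-likelihood test of this interaction, 0 of the 10 genes had an unadjusted p under 0.05, against 2.52% of all genes tested, and the smallest was 0.551, for Smad4. DESeq2 and the other tools were not run on it. With 2 males and 3 females a group, the SE of these interactions lay between 0.74 and 1.06 on the log2 scale.

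The wider pathway was described by 6 lists of 90 genes in all, the 10 above included, of which 88 were tested. Of these, 2 were called higher with GW2580 (Tgfbr2 and Itgb5) and 11 lower, against 4.01% and 6.7% of all genes tested, and the median log2 fold change was 0.08. The genes called lower were Bmp6, Bmp7, Ltbp3, Tgfbr3, Smad9, Ccn2, Col1a1, Col1a2, Col3a1, Id1 and Id3. Of these, only Smad9 and Id3 were also called without Vehicle 5, and neither was without both Vehicle 2 and Vehicle 5. Without Vehicle 5 alone, 5 of the 88 were called higher (Tgfbr1, Tgfbr2, Itgb1, Itgb5 and Thbs1) and 4 lower (Smad9, Id2, Id3 and Snai1), against 6.18% and 6.74% of all genes, and the median was 0.32. After Benjamini-Hochberg adjustment, edgeR's quasi-likelihood test put 0 of the 88 under 0.05, and at an unadjusted p under 0.05 and any fold 6 were higher and 13 lower, against 6.61% and 8.12% of all genes.

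Among the ligands, 3 of 12 tested genes had a positive log2 fold change, 0 were called higher and 2 lower (4.01% and 6.7% of all genes), with a median of -0.44. Without Vehicle 5, 7 of the 12 were positive, 0 were called and the median was 0.066. Bmp6 and Bmp7, bone morphogenetic proteins that signal through other receptors of the family, were at 256 and 137 CPM in Vehicle 5. In the other 9 libraries they lay between 6.25 and 10.9 CPM and between 3.54 and 5.78 CPM. Without Vehicle 5 the log2 fold change of Bmp6 was 0.052 and that of Bmp7 -0.22, and neither was called. Of the 16 genes for latency and activation, 10 were positive, with a median of 0.41, which fell to 0.11 without GW2580 3. Itgb5, a subunit of an integrin that binds latent TGF-beta and also a target of the pathway, was at 973, 911, 1149.6, 1153 and 1714 CPM in Vehicle 1 to 5 and at 2356, 1788, 5417, 2113 and 903 CPM in GW2580 1 to 5. It was above every Vehicle library in 4 GW2580 libraries and below all of them in GW2580 5, with a log2 fold change of 1.09 (SE 0.48, edgeR's quasi-likelihood test, adjusted p = 0.319). Its call was lost without any of Vehicle 1 to 4, GW2580 1 or GW2580 3. Ltbp3, which binds latent TGF-beta to the matrix, was at 461 CPM in Vehicle 5 and at 4.25 to 13.9 CPM in the other libraries. Its log2 fold change was -4.00 with all libraries and -0.32 without Vehicle 5, where it was not called.

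Of the 13 receptor genes, 11 had a positive log2 fold change and the median was 0.33. Tgfbr3, a co-receptor that presents the ligand, was called lower, but it was at 145 CPM in Vehicle 5 and 7.06 to 10.7 CPM elsewhere, and without Vehicle 5 its log2 fold change was 0.10. Of the 14 Smad genes and cofactors, 9 were positive, with a median of 0.20, which was 0.60 without Vehicle 5 and 0.091 without GW2580 3. Smad1, which carries the signal of bone morphogenetic proteins, was at 60.3, 58.1, 69.2, 58.6 and 44.0 CPM in Vehicle 1 to 5 and at 93.4, 104, 210.0, 77.9 and 55.3 CPM in GW2580 1 to 5. GW2580 1 to 4 exceeded the Vehicle range. For Smad1 the log2 fold change was 0.90 (SE 0.37, edgeR's quasi-likelihood test, unadjusted p = 0.028, adjusted p = 0.298), under the fold of 2. Smad9, of the same branch, was called lower at -1.23 (SE 0.45, edgeR's quasi-likelihood test, adjusted p = 0.280), but its levels were near the filter, at 1.15 to 2.80 CPM with Vehicle and 0.556 to 1.90 CPM with GW2580.

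Of the 17 inhibitors, 9 were positive, 0 were called and the median was 0.14, against 0.26 without Vehicle 5 and -0.14 without GW2580 3. Fkbp1a, which binds the type I receptor and keeps it silent, averaged 218 ± 78.9 CPM in Vehicle mice and 123 ± 46.0 CPM in GW2580 mice (SD, n = 5 each), a log2 fold change of -0.82 (SE 0.37, edgeR's quasi-likelihood test, unadjusted p = 0.045, adjusted p = 0.332). Pmepa1, a feedback inhibitor induced by the pathway, was at 522 ± 253 and 476 ± 281 CPM (SD, n = 5 each, log2 fold change -0.13, edgeR's quasi-likelihood test, adjusted p = 0.914).

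Of the 22 canonical targets, 7 had a positive log2 fold change, 1 was called higher and 6 lower (4.01% and 6.7% of all genes), and the median was -0.39. Without Vehicle 5, 11 of the 22 were positive, 1 was called higher and 3 lower (6.18% and 6.74% of all genes), and the median was -0.051. The matrix genes Col1a1, Col1a2 and Col3a1 and the growth factor gene Ccn2 were at 75.3, 96.9, 44.7 and 23.9 CPM in Vehicle 5, and in the other libraries at most at 16.9, 9.24, 10.9 and 2.31 CPM. Without Vehicle 5 their log2 fold changes were -0.72, 0.33, -0.51 and 0.14 and none was called. Id1 and Id3, regulators of differentiation that bone morphogenetic proteins induce, were also highest in Vehicle 5, at 66.6 and 159 CPM. Id1 was at 21.8 to 34.2 CPM in Vehicle 1 to 4 and at 6.78, 27.1, 15.3, 4.50 and 16.7 CPM in GW2580 1 to 5. Its log2 fold change was -1.32 (SE 0.48, edgeR's quasi-likelihood test, unadjusted p = 0.015). Leaving out Vehicle 5 gave -0.95 (SE 0.42, unadjusted p = 0.037 by the same edgeR test), just under the fold of 2. Id3 was at 90.1 CPM in Vehicle 2, at 25.0 to 28.0 CPM in Vehicle 1, 3 and 4 and at 8.68, 33.7, 22.0, 8.28 and 17.9 CPM in GW2580 1 to 5. Its log2 fold change was -1.85 (SE 0.59, edgeR's quasi-likelihood test, adjusted p = 0.280), and it stayed called whichever single library was left out. Without both Vehicle 2 and Vehicle 5 it was -0.54, with the glial and neuronal markers as a covariate -0.92 and with the share of fragments on no exon -0.83, and it was not called in these fits. Jun and Junb, the transcription factor genes with the highest level of the list, averaged 8470.2 ± 918 and 5707 ± 716 CPM in Vehicle mice and 13509 ± 6534 and 7846 ± 4158 CPM in GW2580 mice (SD, n = 5 each), with log2 fold changes of 0.67 and 0.46 that did not pass the test.

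Markers of astrocytes, oligodendrocytes and neurons were high in Vehicle 5 and in Vehicle 2. Monocyte and granulocyte markers went another way. They summed to 29365 CPM in Vehicle 1, above its microglia markers at 21588 CPM, to 14737 CPM in GW2580 2 and to 858 CPM in Vehicle 5, their lowest. Border macrophage markers summed highest in GW2580 3, at 732 CPM. The 7 astrocyte markers summed to 1188 CPM in Vehicle 5, 560 CPM in Vehicle 2 and 158 to 337 CPM in the other 8 libraries. Of the 7, 4 were highest in Vehicle 5, 2 in Vehicle 2 and 1 in GW2580 3, and Sox9 alone was at 495 CPM in Vehicle 5, whereas Slc1a3 was highest in GW2580 3, at 257 CPM, and was at 245 CPM in Vehicle 2. The oligodendrocyte markers summed to 15381 CPM in Vehicle 2, 3772 CPM in Vehicle 5 and at most 1505 CPM elsewhere, and the neuron markers to 474, 241 and at most 169 CPM. The endothelial and mural markers summed to 201 CPM in Vehicle 5, 81.3 CPM in Vehicle 2 and at most 127 CPM elsewhere. The part of these markers in the lower calls was not tested beyond fits without Vehicle 2 or Vehicle 5 and with the marker covariate. The values of Bmp6, Ltbp3, Tgfbr3 and the collagens without Vehicle 5 are given above.

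**Figure D5:**
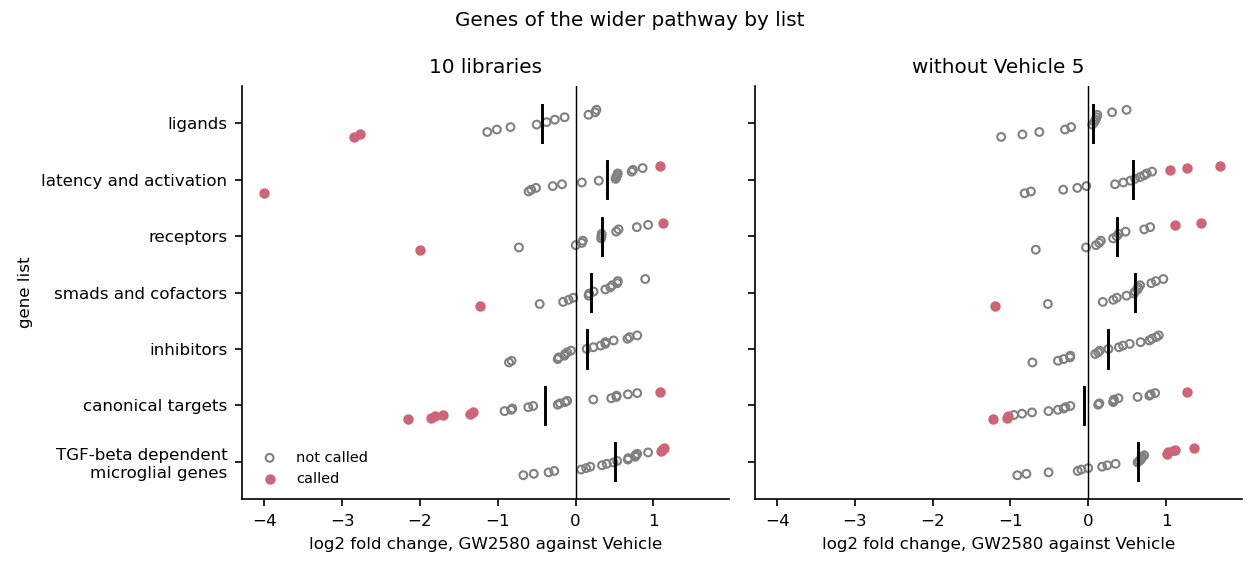
Log2 fold change of GW2580 against Vehicle for the tested genes of 7 lists (a gene may stand in several), with 10 libraries on the left and without Vehicle 5 on the right; filled red points were called, open grey points were not, and black bars are list medians. The far left points, down to -4.00 for Ltbp3, are absent once Vehicle 5 is left out.

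The last list held 20 genes known to need TGF-beta in microglia, Tgfbr1 and Jun included. All 20 were tested, 16 had a positive log2 fold change and the median was 0.51, against 0.18 without GW2580 3. 2 marker lists had positive medians as well. Of the 9 microglia markers, all of which are also in this list, 8 were positive with a median of 0.40. Their median was 0.051 without GW2580 3 and 0.25 without Vehicle 5, with 5 of the 9 positive in each fit. Of 7 border macrophage markers tested, 5 were positive with a median of 0.91 (0.21 without GW2580 3), and their sum over all 8 was 213 to 387 CPM with Vehicle and 732 CPM in GW2580 3, against 182 to 318 CPM in the other GW2580 libraries. Of the 20 genes that need TGF-beta, 3 were called, all higher with GW2580, and 4 had an unadjusted p under 0.05. Of all genes, 4.01% and 6.61% were higher by these rules. After adjustment, edgeR's quasi-likelihood test put 0 of the 20 under 0.05. Cx3cr1, the microglial receptor of fractalkine, was at 2414, 2129, 3113, 2797 and 2263 CPM in Vehicle 1 to 5 and at 5778, 4304, 10938, 4368 and 2582 CPM in GW2580 1 to 5. GW2580 1 to 4 were above every Vehicle library, and GW2580 5 was within the Vehicle range. Its log2 fold change was 1.14 (SE 0.46, edgeR's quasi-likelihood test, adjusted p = 0.298). The call was lost without Vehicle 1, Vehicle 2, Vehicle 5 (1.10) or GW2580 3 (0.75). Without Vehicle 5, 4 of the 20 were called, all higher (Tgfbr1, Gas6, Mertk and Pros1), against 6.18% of all genes. Gas6, a ligand of Mertk named here only for that call, was at -0.35 over 10 libraries and 1.01 without Vehicle 5.

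Pros1 and Mertk, a bridging ligand and the receptor kinase with which microglia take up dying cells, had log2 fold changes of 1.10 (SE 0.42, edgeR's quasi-likelihood test, adjusted p = 0.281) and 1.11 (SE 0.47, adjusted p = 0.305). The call of Pros1 was lost without GW2580 3 (0.70) and that of Mertk without any of Vehicle 1 to 4, GW2580 1 or GW2580 3 (0.72). Pros1 was at 148 to 207 CPM with Vehicle and at 444, 311, 776, 289 and 142 CPM in GW2580 1 to 5. Mertk was at 200.4, 137, 215, 188 and 361 CPM in Vehicle 1 to 5 and at 577, 240.1, 919.9, 463 and 172 CPM in GW2580 1 to 5. As for Tgfbr2, GW2580 1, 3 and 4 were above every Vehicle library for Mertk, Vehicle 5 was the highest Vehicle library and GW2580 5 the lowest GW2580 library. Tmem119, a surface marker of microglia, was at 3473 ± 673 and 5929 ± 3765 CPM (SD, n = 5 each, log2 fold change 0.77, edgeR's quasi-likelihood test, adjusted p = 0.452). C1qa, of complement and among the genes of this list with the highest level, was at 4775 ± 2289 and 3293 ± 1759.7 CPM (SD, n = 5 each), with a log2 fold change of -0.54 that did not pass the test.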

How the data were processed

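RNA of CD11b-selected microglia from 10 mice was sequenced as read pairs from SMART-Seq v4 PLUS libraries. The authors trimmed the reads, aligned them with STAR to GRCm38, counted each uniquely aligned fragment that fell on an exon of a RefSeq gene, ignoring strand (featureCounts 1.6.3 per the file headers) and deposited the raw counts without normalization, with the exon length of each gene. Fragments on no annotated exon made up 38.4 to 60.1% of the counting records and entered no library size. Symbols and coordinates came from the RefSeq table of GRCm38.p6. Groups, sex and replicate numbers came from the sample labels.

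The filter asked for over 1 CPM in 3 or more libraries. TMM factors ran from 0.691 in GW2580 3 to 1.61 in GW2580 4. Treatment was tested as the only term with edgeR's quasi-likelihood test (edgeR 4.0.16, limma 3.58.1 and DESeq2 1.42.0 in R 4.3.3), with Benjamini-Hochberg adjusted p over all genes. Single genes and ratios were also tested with two-sided exact permutation tests, whose smallest possible p is 0.00794, in Python 3.11.15. The SE is the log2 fold change over the square root of F. Log2 CPM used a prior count of 2. The test was checked on simulated counts. The members and lists were chosen with earlier results of these data known, and the lists are from general knowledge. Named were all 10 genes, pathway genes that were called or were the 2 with the highest level per kilobase of their list, and for each of the 10 the 3 genes of highest correlation; some of these are not reported here. Counting error is small at these depths and reads carry no molecular identifiers, so the spread between mice was used for each test.

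Alternatives were other scalings (DESeq2 size factors, library size only, upper quartile), filters and tests (DESeq2, likelihood ratio, limma-voom), sex, replicate number, marker or ribosomal levels and the share on no exon as covariates, removal of the trend with gene length (loess span 0.5), and libraries left out.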

Additional observations from a re-analysis of the deposited data

Results flagged for a closer look

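In 14 of the 50 groups of 5 libraries examined, the gap between the highest library and the next exceeded Dixon's critical value, 0.71 of the range. No chance rate can be set beside this count. Genes of the wider pathway were named partly for being called, and several of those calls rested on Vehicle 5. The gaps were also taken on CPM, not on a log scale. Among the 10 genes this was so in 4 of 20 groups. For Tgfb1 the gap between GW2580 3, at 283 CPM, and the next library was 0.873 of the range of the GW2580 group. In the Vehicle group, Vehicle 5 stood apart for Tgfbr2 at 309 CPM (0.717 of the range), Smad4 at 122 CPM (0.971) and Ski at 255 CPM (0.863).

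In the wider pathway Vehicle 5 stood apart for Bmp6 (0.985 of the Vehicle range), Bmp7 (0.988), Ltbp3 (0.979), Tgfbr3 (0.990), Ccn2 (0.923), Col1a1 (0.902), Col1a2 (0.956), Col3a1 (0.912) and Id1 (0.723), each time as the highest library. For Smad9 the highest GW2580 library was GW2580 5, at 1.90 CPM (0.874 of the range). Vehicle 5 accounted for 12 of the 14, and since all genes were read from the same libraries these are not independent.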

How the results depend on the processing

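Of 260 refitted values of the 10 genes over 26 alternatives, 227 kept their direction and their side of an unadjusted p of 0.05, 19 kept the direction and lost the threshold, 10 passed it newly and 4 changed sign. The 4 were Tgfb1 at -0.079 and Ski at -0.013 without GW2580 3, and Ski at -0.099 and Smad7 at 0.27 with the ribosomal mean as a covariate. The 1 call among the 10 genes became 2 (Tgfbr1 and Tgfbr2) with library size only, with upper quartile factors and at any fold change. It became 0 with limma-voom, with the ribosomal covariate and at an adjusted p under 0.05, and 3 without Vehicle 5 and GW2580 5. Leaving out 1 library gave 0 to 2 calls. Library size alone moved the median of all genes from -0.03 to 0.23 and turned 1141 higher and 1905 lower calls into 2123 and 875.

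The 13 calls of the wider pathway became 7 with DESeq2, 6 with limma-voom, 3 with the share on no exon as a covariate, 6 with the glial and neuronal covariate, 2 without Vehicle 2 and Vehicle 5, 0 at an adjusted p under 0.05, and 7 to 14 with 1 library left out (7 without GW2580 3). The 3 calls among genes that need TGF-beta in microglia became 0 with limma-voom, with the ribosomal covariate and at an adjusted p under 0.05, 5 without Vehicle 5 and GW2580 5, 1 without Vehicle 2 and Vehicle 5, and 0 to 4 with 1 library left out (0 without GW2580 3). With 1 library left out, log2 fold changes that changed sign ranged from -0.079 to 0.35 for Tgfb1, -0.013 to 0.82 for Ski, -3.04 to 0.052 for Bmp6, -2.25 to 0.10 for Tgfbr3, -0.48 to 0.15 for Pmepa1, -2.45 to 0.14 for Ccn2 and -2.08 to 0.33 for Col1a2. Signs also changed without Vehicle 2 and 5 for Ltbp3 (0.13), Tgfbr3 (0.058), Ccn2 (0.70) and Col1a2 (0.51), and without Vehicle 5 and GW2580 5 for Ccn2 (0.20) and Col1a2 (0.13). They changed for Col1a2 (0.0043) with the glial covariate, and for Pmepa1 (0.34) and C1qa (0.36) with the ribosomal covariate. The causes were not tested.

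No pairing of the mice by replicate number was seen, with correlations of same-numbered deviations of 0.08, 0.13, -0.05, -0.07 and -0.39. These values cannot exclude a pairing, and the -0.39 is that of Vehicle 5 and GW2580 5, the libraries that stood apart. With the replicate number as a block, 0 of the 10 genes, 6 of the wider pathway and 0 of the genes that need TGF-beta were called. Under either scaling, 0 of the 10 genes had a p under 0.05 for the sex interaction in edgeR's quasi-likelihood test.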
